A study of Mus musculus with 67 samples.

Results

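Interferon-stimulated genes (ISGs) are the genes that cells turn on when interferon reaches them. The 41 followed here were picked by symbol and are 41 of the 24421 genes in each of 3 deposited expression tables from mouse monocytes and their marrow progenitors. By role they form 6 lists. These are 8 members of the Ifit and oligoadenylate synthetase (Oas) families, 3 genes of the Isg15 system, 11 other antiviral effectors, 4 RNA sensors or their partners, 6 interferon-inducible GTPases and 9 genes of signalling, ubiquitin and ADP-ribosylation.

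The study sequenced RNA of 67 libraries in 28 sorted groups, and asked how expression changes between monocyte populations. The first table held C57BL/6 mice of 7 weeks. Marrow gave 4 libraries each of monocyte-dendritic cell progenitors (MDP) and of common monocyte progenitors (cMoP), 3 of Ly6C+ monocytes and 4 of Ly6C- monocytes. Blood gave 4 libraries of Ly6C+ monocytes, 3 of the Ly6Cint subset and 3 of the Ly6C- subset. The second table, called the knockout table here, held 8-week C57BL/6 marrow (MDP, cMoP and Ly6C+ monocytes) and blood of 16-week mice on a mixed background. That blood gave wt Ly6C+, Ly6Cint and Ly6C- monocytes and ko Ly6C+ and Ly6Cint monocytes, with 2 libraries in each group. The labels call the second genotype ko without an allele, and the series title names C/EBPb. The third table held 8-week C57BL/6 mice in a transfer experiment with 2 libraries in each group. Its groups were marrow Ly6C+ monocytes before transfer, the grafted cells taken back from blood and spleen at 24, 36 and 48 h, and host Ly6C+, Ly6Cint and Ly6C- monocytes of blood and spleen at 24 h. In the first 2 tables, and before transfer, cells were enriched on CD115 before sorting; the other transfer libraries came from Ficoll-treated blood or ACK-lysed spleen. The labels do not say whether libraries of a group came from separate mice, so a p-value measures the spread between libraries, which may be technical.

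Type I interferons bind a receptor made of Ifnar1 and Ifnar2. The kinases Jak1 and Tyk2 then phosphorylate Stat2, which joins Irf9 and binds a short element in ISG promoters, the interferon-stimulated response element. Irf7, itself an ISG, drives further interferon production. A low level of ISG expression in uninfected animals is known as tonic interferon signalling, and Ifngr1 and Ifngr2 carry the separate signal of interferon gamma.

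RefSeq gives a promoter window (GRCm38.p6) for 31 of the 41 genes, and 10 were not matched: Oas2, Mx1, Mx2, Dhx58, Usp18, Rtp4, Ifi27l2a, Parp9, Parp14 and Zbp1. The windows run from 250 bases before to 50 bases after each gene's start. The core of the response element, GAAA with any 2 bases and a second GAAA after it, read on both strands, was present for 17 of these 31 genes (54.8%). It was present for 1079 of all 27025 genes with a window (3.99%). The site of dimerised Stat proteins, TTCNNNGAA, was present for 8 of the 31 genes (25.8%) and for 2582 of 27025 genes (9.55%). A match is a stretch of letters and not a shown binding site. The 250 bases before the start are printed for the 3 matched genes whose levels moved most over the comparisons of the first table, Isg15, Ifit3 and Rsad2, and for the matched gene that moved least, Herc6. Their mean absolute log2 ratios were 1.61, 1.53, 1.36 and 0.36. These 4 do not stand for the rest: the core was present for 7 of the 15 matched genes that moved most, with no match for Oasl1, Samd9l or Oasl2, and for 10 of the 16 that moved least, Irgm1 and Irgm2 among them. Sequences read 5′ to 3′ along the gene, and capitals mark that core on either strand. Isg15 lies at chr4:156200819-156201068 (minus strand) and holds 3 overlapping matches, Ifit3 at chr19:34583279-34583528 (plus strand) holds matches that begin at -156 and -122 from the start, Rsad2 at chr12:26456453-26456702 (minus strand) holds a match at -120, and Herc6 at chr6:57580742-57580991 (plus strand) holds none.
Isg15: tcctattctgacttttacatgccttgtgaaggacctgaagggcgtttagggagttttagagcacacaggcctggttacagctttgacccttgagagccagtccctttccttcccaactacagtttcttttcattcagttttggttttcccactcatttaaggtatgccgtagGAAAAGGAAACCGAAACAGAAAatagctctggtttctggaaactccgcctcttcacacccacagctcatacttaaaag
Ifit3: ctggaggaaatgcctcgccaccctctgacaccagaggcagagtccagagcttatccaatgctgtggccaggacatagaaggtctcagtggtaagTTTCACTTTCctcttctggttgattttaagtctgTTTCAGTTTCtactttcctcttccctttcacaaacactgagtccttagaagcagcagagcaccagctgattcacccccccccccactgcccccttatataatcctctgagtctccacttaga
Rsad2: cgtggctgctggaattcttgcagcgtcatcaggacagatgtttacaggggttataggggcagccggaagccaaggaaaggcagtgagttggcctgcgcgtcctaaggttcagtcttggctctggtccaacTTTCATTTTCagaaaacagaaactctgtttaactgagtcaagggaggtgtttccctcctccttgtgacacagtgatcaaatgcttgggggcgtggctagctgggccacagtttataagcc
Herc6: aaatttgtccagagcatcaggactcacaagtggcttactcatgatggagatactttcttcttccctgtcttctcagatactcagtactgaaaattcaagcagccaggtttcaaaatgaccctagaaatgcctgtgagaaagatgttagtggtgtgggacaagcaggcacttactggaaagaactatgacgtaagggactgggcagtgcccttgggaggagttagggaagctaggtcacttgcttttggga

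Levels are given as reads per 1000000 (RPM) within each table, and ratios as log2 of RPM plus 1. RPM values are not comparable between tables, since the third was scaled to its listed genes. Genes were tested with limma and Benjamini-Hochberg adjustment over all genes of a table, and a gene rose or fell where the adjusted p was under 0.05. All 41 members were among the genes tested, which numbered 11373, 11388 and 12096 in the 3 tables. Shares of all genes tested belong to this main fit. For the alternative runs, described at the end, only counts of members are given. Whether those counts exceed the share of all genes in the same run was not analysed. Reads on listed genes ran from 577690 to 3643327 per library in the first table, from 942751 to 5478761 in the second and, for the 23 of 26 libraries where depth could be recovered, from 502760 to 1184909 in the third. In sorted bulk samples, fewer cells of a kind and less RNA per cell cannot be told apart.

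Some libraries stood apart from others of their group. In the 7-week blood Ly6C+ group, 5.56% of genes with a mean of at least 20 RPM, and 8 of 39 members, were at least 4 times higher in the highest than in the lowest of the 4 libraries. Over the other 6 groups of that table the share of genes was at most 0.998%, and no member was that wide. Trim30a was at 217 and 157 RPM in blood Ly6C+ replicates 1 and 2 and at 15 and 89 RPM in replicates 3 and 4, and Ifit1 was at 60.7, 43.8, 2.64 and 5.16 RPM. Among graft groups this share reached 12.9% in blood at 48 h. Blood grafts at 24 and 48 h and spleen grafts at 48 h had 7734 to 8761 genes above 0. The other libraries of the third table had 9354 to 11719. In those grafts a listed 0 may be a missed gene, and the part of this in their results was not tested. Counts of calls that rest on the blood Ly6C+ libraries are given also with either pair alone, and those on grafts without single libraries.

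Summed over the 41 genes, the level was lowest in cMoP at 782 ± 68.9 RPM (SD, n = 4) and close to that in MDP at 1006 ± 151 RPM (n = 4). It was 3296 ± 438 RPM in marrow Ly6C+ monocytes (n = 3) and 6810 ± 408 RPM in blood Ly6C+ monocytes (n = 4). It was 4168 ± 362 RPM in blood Ly6Cint (n = 3), 2717 ± 239 RPM in blood Ly6C- (n = 3) and 2866 ± 243 RPM in marrow Ly6C- monocytes (n = 4). The mean was thus highest in circulating Ly6C+ monocytes, and marrow Ly6C+, marrow Ly6C- and blood Ly6C- monocytes lay close together. Ifi27l2a, of the Ifi27 family of mitochondrial proteins, held between 2.90% and 42.0% of the group sums. Blood Ly6C+ monocytes had the highest group mean for 35 of the 41 genes and cMoP the lowest for 32. The exceptions at the top were Herc6 and Trim30a (blood Ly6Cint), Irgm2 (blood Ly6C-), Dtx3l (marrow Ly6C-), Cmpk2 (marrow Ly6C+) and Gbp3 (cMoP). Across the 25 libraries, the correlation of each gene with the mean of the others had a median r of 0.89, with a lowest r of -0.41 for Gbp3; it is a description over libraries that share groups.

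Single genes show where the order of groups is clear and where it is not. Mx1 was at 7.74 ± 2.23 RPM in MDP, 8.72 ± 1.96 in cMoP, 66.4 ± 10.5 in marrow Ly6C+, 27.7 ± 6.68 in marrow Ly6C-, 104 ± 32.4 in blood Ly6C+, 36.5 ± 7.66 in blood Ly6Cint and 34.8 ± 9.9 in blood Ly6C- monocytes (SD). Stat2, in the same order, was at 24 ± 2.65, 20.5 ± 3.82, 87.8 ± 25.7, 69 ± 23.3, 171 ± 51.3, 64.4 ± 1.2 and 64.8 ± 8.72 RPM. For both, the ranges of mean ± SD of the 2 progenitors overlapped, as did those of blood Ly6Cint, blood Ly6C- and marrow Ly6C- monocytes. Marrow Ly6C+ monocytes overlapped blood Ly6C+ monocytes for Mx1. For Stat2 they overlapped blood Ly6Cint, blood Ly6C- and marrow Ly6C- monocytes. Oasl2 was at 6.9 ± 3.05, 2.78 ± 1.26, 54.5 ± 13, 39.8 ± 16.6, 109 ± 61.4, 80.2 ± 6.45 and 41 ± 7.41 RPM, and its wide blood Ly6C+ spread took in the Ly6Cint level. Irgm1 was at 55.6 ± 12.6, 38 ± 5.75, 81 ± 2.57, 51.4 ± 20.7, 93.7 ± 61, 93.2 ± 21.3 and 70.8 ± 15.3 RPM, so its groups were much less apart than those of Mx1. Gbp2 was at 6.72 ± 1.37, 9.12 ± 1.9, 22.7 ± 4.31, 18.4 ± 4.28, 48.3 ± 13.8, 25.7 ± 2.35 and 40 ± 5.85 RPM, with blood Ly6C- within the spread of blood Ly6C+ monocytes.

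**Figure D1:**
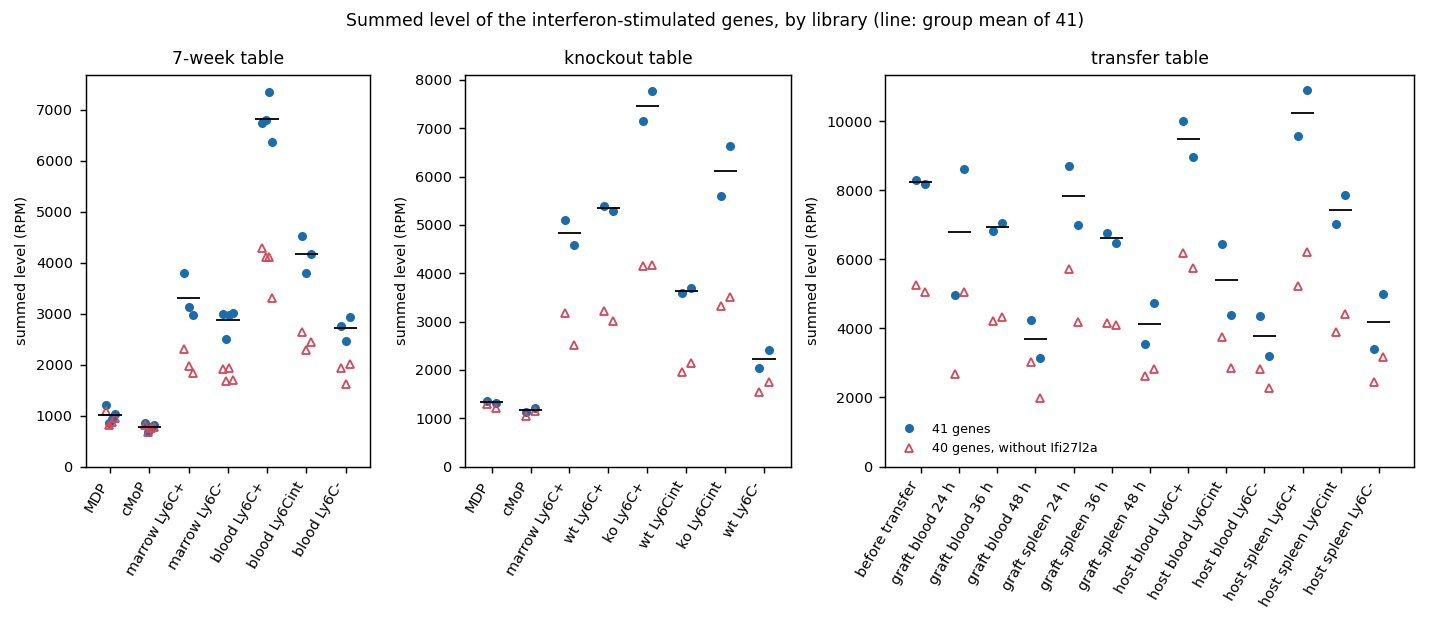
Summed RPM of the 41 genes (filled circles) and of the 40 without Ifi27l2a (open triangles) for every library in the 3 tables, with the group mean of the 41 as a line. In the 7-week table blood Ly6C+ libraries lie highest, around a mean of 6810 RPM, and cMoP libraries lowest, around 782 RPM.

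**Figure D2:**
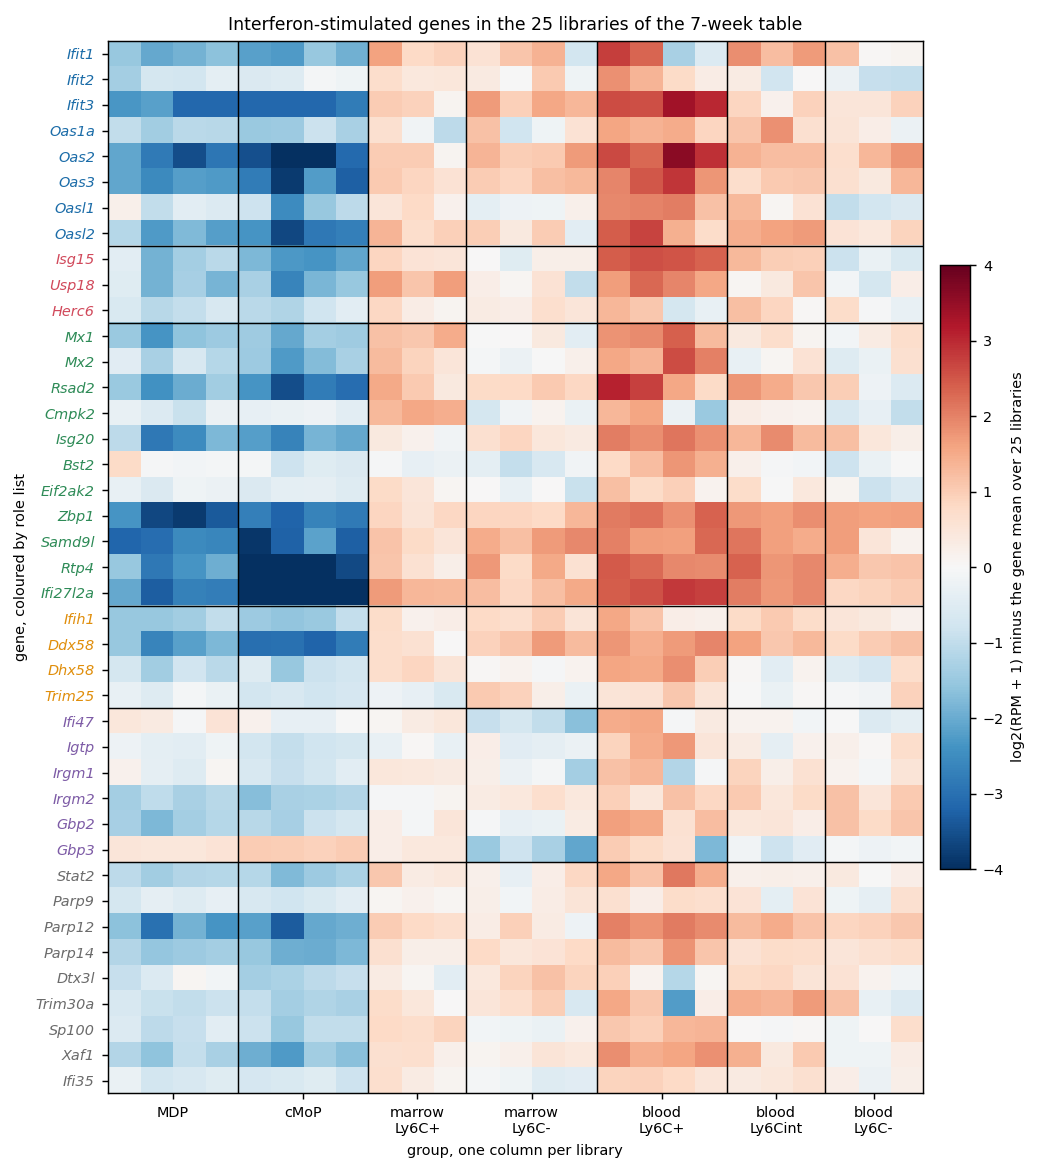
Each cell is log2(RPM + 1) of a gene in a library of the 7-week table minus that gene's mean over the 25 libraries, with genes grouped by role list. Progenitor columns are below the gene mean for most genes, Gbp3 runs the other way, and the 4 blood Ly6C+ columns differ among themselves for Ifit1, Rsad2, Cmpk2 and Trim30a.

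The first step compared cMoP with the earlier MDP. Of the 41 genes 5 fell and none rose, where 5.2% of genes tested rose and 4.05% fell, and the median log2 ratio was -0.37 against -0.01 over all genes. Ifi27l2a was at 109, 46, 69.6 and 67.1 RPM in MDP and at 27, 19.4, 16.7 and 27.7 RPM in cMoP, a fall of 1.61 ± 0.19 (SE) on the log2 scale (limma, adjusted p = 4.79e-07). The libraries did not overlap. Rtp4, a chaperone of membrane receptors with antiviral action, was at 13.8, 4.84, 7.13 and 9.74 RPM in MDP and at 1.21, 1.45, 1.21 and 2.47 RPM in cMoP and fell by 1.88 ± 0.27 (limma, adjusted p = 7.25e-06). These 2 calls held in every alternative run, and those of Isg15, Oasl1 and the RNA sensor Ddx58 (RIG-I) did not. A fit of these 2 groups alone called 17 members, and without cMoP replicate 1 the count was 8. In these 7-week libraries summed plasmacytoid dendritic cell markers were at 203 to 230 RPM in MDP and 35.6 to 60.4 RPM in cMoP. Dendritic cell markers were at 269 to 308 RPM and 21.2 to 33.6 RPM. Of those tested, 4 of 7 and 3 of 5 fell, while 5 of 10 Ly6C+ monocyte markers rose. Some markers of other lists passed as well, and the part of these cells in the result was not tested. In the 8-week duplicates no member passed in this step with limma or edgeR (9 had an unadjusted p under 0.05), where 1.83% of all genes rose and 3.02% fell. Without 8-week cMoP replicate 2 the count was 2.

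When marrow Ly6C+ monocytes were compared with the cMoP before them, the set rose nearly as a whole. Of the 41 genes 36 rose and none fell, where 15.3% of genes tested rose and 22.4% fell, and the median log2 ratio was 1.97 against -0.17 over all genes. By role list, 8 of 8 Ifit and Oas genes, 3 of 3 of the Isg15 system, 10 of 11 effectors, 3 of 4 sensors, 3 of 6 GTPases and 9 of 9 signalling genes rose. The list medians ran from 0.85 for the GTPases to 3.41 for the Ifit and Oas genes. Of the 36 calls, 30 held in every alternative run.

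Among Ifit and Oas genes, whose proteins bind foreign RNA or make the oligoadenylates that activate RNase L, Oas2 was at 1.21, 0.29, 0.606 and 1.92 RPM in cMoP and at 49.4, 49.9 and 26.1 RPM in Ly6C+ monocytes, a rise of 4.43 ± 0.34 (limma, adjusted p = 1.58e-11). Ifit3 had no read in cMoP replicates 1 to 3 and 1 read in replicate 4, and was at 17, 15.8 and 8.7 RPM in Ly6C+ monocytes. Its log2 ratio of 3.75 ± 0.33 depends on the added 1 RPM and is not a bound. Oasl2 and Oas3 rose by 3.92 and 3.86. Isg15, the ubiquitin-like modifier, went from 8.66, 5.8, 5.46 and 6.87 RPM to 59.4, 47.4 and 45.7 RPM, a rise of 2.76 ± 0.26 (limma, adjusted p = 7.04e-10). Usp18, which removes Isg15 from proteins and blocks Ifnar2, rose by 3.31. Of these genes none had overlapping libraries between the 2 groups.

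Among effectors, Ifi27l2a reached 1478, 1158 and 1123 RPM, a rise of 5.74 ± 0.21 (limma, adjusted p = 2.52e-18). Rtp4 rose by 4.70, Samd9l, which restrains viral translation, by 3.93, and Rsad2 (viperin, which makes a chain-terminating nucleotide) by 3.92. Bst2 (tetherin, which holds virions at the cell surface) is the effector that did not pass. It was at 144, 84, 108 and 100 RPM in cMoP and 145, 120 and 128 RPM in Ly6C+ monocytes, a log2 ratio of 0.28 ± 0.24 (limma, adjusted p = 0.367). The sensors Dhx58 and Ddx58 rose by 1.61 and 3.44, while Trim25, the ubiquitin ligase that activates RIG-I, had a ratio of 0.32 ± 0.25 (limma, adjusted p = 0.342).

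The GTPases, of families that act against intracellular pathogens in their vacuoles and answer interferon gamma strongly, divided. Irgm2, Gbp2 and Irgm1 rose, with Irgm2 at 1.36 ± 0.22 and Gbp2 at 1.23 ± 0.26 (limma, adjusted p = 1.57e-05 and 0.000333). Irgm1 lost its call in at least 1 alternative. Ifi47 and Igtp had ratios of 0.42 and 0.62 and did not pass. Gbp3 was at 128, 126, 120 and 130 RPM in cMoP and at 77.2, 85.7 and 84.8 RPM in Ly6C+ monocytes, a ratio of -0.61 ± 0.38 (limma, adjusted p = 0.213), so all 3 monocyte libraries lay below all 4 progenitor libraries without passing. In signalling, Parp12 rose by 3.20, Xaf1 by 2.32, Parp14 by 2.18 and Stat2, which Irf9 joins, by 2.02.

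Part of the rest of the pathway moved in the same step, where 15.3% of genes tested rose and 22.4% fell. Irf7 was at 8.86, 5.8, 7.88 and 7.69 RPM in cMoP and at 229, 192 and 194 RPM in Ly6C+ monocytes, a rise of 4.60 ± 0.24 (limma, adjusted p = 1.97e-15). Of 8 transcription factors tested 7 rose, among them Irf9 (1.43) and Irf1 (0.64). Of 8 receptors and kinases tested 5 rose, including Tyk2 (1.05), Ifnar1 (0.74), Jak1 (0.64) and Ifnar2 (0.60). Of 14 sensors and adaptors 6 rose, and of 9 inhibitors 5, with none falling in any of these lists. Socs1, an inhibitor of the Jak kinases, had a ratio of 1.02 (limma, adjusted p = 0.0653). The 10 interferon genes looked up, among them Ifnb1 and Ifng, did not reach the level needed for testing.

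The 8-week marrow duplicates gave the step again in other libraries. Of the 41 genes 38 rose and none fell, where 16.3% of genes tested rose and 20.5% fell, and the median was 1.92 against -0.10 over all genes. All 36 genes called in the 7-week mice were among the 38 (94.7% of the latter), which also held Ifi47 and Igtp. Ifi27l2a went from 93.7 and 77.4 RPM to 1924 and 2070 RPM, a rise of 4.53 ± 0.21 (limma, adjusted p = 3.16e-09), and Isg15 from 25.8 and 40 RPM to 141 and 105 RPM, a rise of 1.89 ± 0.22 (limma, adjusted p = 1.52e-05). Gbp3, Bst2 and Trim25 were again the genes that did not pass, with ratios of -0.82, -0.32 and 0.21. In these duplicates the summed neutrophil markers were at 3074 to 3768 RPM in cMoP and 311 to 331 RPM in Ly6C+ monocytes, and erythroid markers at 309 to 548 RPM and 3400 to 4602 RPM; their part in the result was not tested. In the 7-week table the summed plasmacytoid dendritic cell markers, cells known for high interferon output, were at 35.6 to 60.4 RPM in cMoP and 54.1 to 67.2 RPM in Ly6C+ monocytes. None of the 7 such markers tested passed (median 0.15), and their part in the result was not tested.

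Blood Ly6C+ monocytes were higher than marrow Ly6C+ monocytes for more than 20 of the genes. Of the 41, 23 rose and 1 fell, where 7.32% of genes tested rose and 18.7% fell, and the median was 0.95 against -0.19 over all genes. Isg15 went from 59.4, 47.4 and 45.7 RPM in marrow to 178, 196, 190 and 168 RPM in blood, a rise of 1.84 ± 0.26 (limma, adjusted p = 2.19e-06). Ifit3 went to 53.6, 52.2, 90.7 and 70.9 RPM, a rise of 2.21 ± 0.33, and Oas2 rose by 2.16 ± 0.34 (limma, adjusted p = 6.22e-06 and 1.71e-05). No blood library overlapped marrow for these 3 genes.

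Bst2, which did not pass in the previous step, rose here by 1.52 ± 0.24, from between 120 and 145 RPM in marrow to 265, 360, 512 and 411 RPM in blood (limma, adjusted p = 1.22e-05). Isg20, an exonuclease that degrades viral RNA, rose by 1.85 and Zbp1, a sensor of Z-form nucleic acid, by 1.37. Ddx58 rose by 1.28, Trim25 by 1.06, the GTPase Igtp by 1.33 and Irf7 by 1.60, while Ifi47, Irgm1 and Gbp3 did not pass. Cmpk2, a mitochondrial nucleotide kinase, is the gene that fell, by 1.13 (limma, adjusted p = 0.0429). It rested on the blood libraries, which were at 66.8, 78.4, 22 and 8.59 RPM. With blood replicates 1 and 2 alone its ratio was 0.019 and 24 genes rose with none falling; with replicates 3 and 4 alone 21 rose and 5 fell. With edgeR 30 rose and none fell, and with quantile scaling 26 and none.

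In blood, Ly6C+ monocytes are known to convert through Ly6Cint to Ly6C- cells, which patrol the vessel wall. From Ly6C+ to Ly6Cint 20 of the 41 genes fell and none rose, where 7.95% of genes tested rose and 19.2% fell, and the median was -0.63 against -0.21 over all genes. Ifit3 was at 53.6, 52.2, 90.7 and 70.9 RPM in Ly6C+ and at 15, 9.1 and 16 RPM in Ly6Cint monocytes, a fall of 2.24 ± 0.33 (limma, adjusted p = 1.46e-05). Isg15 was at 80.1, 64.7 and 63.3 RPM in Ly6Cint and fell by 1.39 ± 0.26 (limma, adjusted p = 0.000231). Neither gene overlapped between the groups. The dynamin-like GTPases Mx2 and Mx1 fell by 1.76 and 1.45, Oas2 by 1.58, Dhx58 by 1.56, Stat2 by 1.35 and Bst2 by 1.29. Ifih1 (0.05), Cmpk2 (-0.10) and Irgm2 (-0.11) differed least and did not pass. Cmpk2 was at 66.8, 78.4, 22 and 8.59 RPM in Ly6C+ and at 31.7, 29.3 and 28.5 RPM in Ly6Cint libraries. Ifih1 was at 76.4, 56.9, 30.8 and 29.2 RPM and at 43.4, 53.6 and 42.5 RPM. For these 2 genes a small ratio thus does not show equal levels. Of the 20 calls 11 held in every alternative. The count was 14 with edgeR; quantile scaling gave 14 that fell and 1 that rose. With blood Ly6C+ replicates 1 and 2 alone 19 fell and none rose, and with 3 and 4 alone 15 fell and 6 rose.

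From Ly6Cint to Ly6C- 4 genes fell and none rose, where 7.25% of genes tested rose and 1.62% fell, and the median was -0.39 against 0.20 over all genes. Isg15 was at 17.4, 26.4 and 20.7 RPM in Ly6C- monocytes, below every Ly6Cint library, a fall of 1.66 ± 0.27 (limma, adjusted p = 0.000506). Ifi27l2a went from 1886, 1513 and 1723 RPM to 808, 845 and 933 RPM, a fall of 0.98 ± 0.22 (limma, adjusted p = 0.00805). Oasl1, which limits translation of Irf7, fell by 1.42 and Xaf1 by 0.97, and each lost its call in 4 alternatives. Ifit3, Stat2 and Oas2 had ratios of -0.01, 0.00 and -0.03. The count was 2 without Ly6Cint replicate 1 or Ly6C- replicate 2, and 9 without Ly6C- replicate 1.

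Over both steps together, 26 of 41 genes were lower in blood Ly6C- than in Ly6C+ monocytes and none higher, where 9.86% of genes tested rose and 10.5% fell, and the median was -1.13 against 0.00 over all genes. The counts of genes that fell were 6 of 8 Ifit and Oas genes, 2 of 3 of the Isg15 system, 9 of 11 effectors, 1 of 4 sensors, 2 of 6 GTPases and 6 of 9 signalling genes. Isg15 fell by 3.05 ± 0.26 and Oasl1 by 2.55 ± 0.36 (limma, adjusted p = 3.19e-10 and 4.08e-06). Usp18, Rsad2, Mx2, Ifi27l2a, Xaf1 and Bst2 fell by 2.05, 1.95, 1.92, 1.72, 1.70 and 1.68. Irgm2 (0.04), Trim30a (-0.06) and Irgm1 (-0.12) differed least. Trim30a was at 217, 157, 15 and 89 RPM in Ly6C+ and at 167, 59.8 and 50 RPM in Ly6C- libraries. Irgm1 was at 137, 153, 26.4 and 58.4 RPM and at 67.8, 57.2 and 87.4 RPM. For these 2 genes a small ratio thus does not show equal levels. Irf7 fell by 1.52 ± 0.24, from 532, 597, 970 and 477 RPM to 192, 191 and 273 RPM (limma, adjusted p = 1.66e-05), while Ifnar1 had a ratio of -0.02 that did not pass. Of the 26 calls 17 held in every alternative, and with blood Ly6C+ replicates 1 and 2 alone 31 genes fell, with 3 and 4 alone 22 fell and 1 rose.

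The same comparison in 2 other sets of mice gave the same direction. In 16-week wt blood 19 genes fell and none rose from Ly6C+ to Ly6C-, where 4.84% of genes tested rose and 5.68% fell, and the median was -1.04 against 0.03. Isg15 was at 119 and 123 RPM in Ly6C+ and 34.7 and 36 RPM in Ly6C- monocytes, a fall of 1.75 ± 0.22 (limma, adjusted p = 9.52e-05), and Ifi27l2a fell by 1.95 ± 0.21 (limma, adjusted p = 2.33e-05). Without Ly6C+ replicate 1, Ly6C+ replicate 2 or Ly6C- replicate 1 the count was 11, 12 and 10, and 8 calls held throughout. In blood of the transfer hosts 7 genes fell and none rose, where 1.69% of genes tested rose and 1.98% fell, and the median was -1.30 against 0.00. There Bst2 was at 440 and 418 RPM in Ly6C+ and 142 and 133 RPM in Ly6C- cells, a fall of 1.64 ± 0.26 (limma, adjusted p = 0.000326), and it is the only one of the 7 whose call held in every alternative. That count was 4 and 1 without Ly6C- replicate A or B, and 1 and 2 without Ly6C+ replicate A or B, while a fit of these 2 groups alone called 15, all lower.

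Of the 19 genes lower in wt blood, 18 were among the 26 of the 7-week mice (69.2% of the 26), and of the 7 in host blood 6 were (23.1% of the 26). Lower in all 3 sets were Bst2, Ifi27l2a, Ifi47, Isg15, Sp100 and Xaf1. Sp100 is a nuclear body protein and Xaf1 promotes apoptosis. In none of the 3 sets did 13 genes pass: Ddx58, Dtx3l, Gbp2, Herc6, Ifih1, Ifit1, Irgm1, Irgm2, Oas1a, Parp9, Trim25, Trim30a and Zbp1. The intermediate step in wt blood called 3 genes lower and none higher, where 2.1% of genes tested rose and 2.2% fell, and the median was -0.73 against -0.06. They were Isg15 (-0.96), Mx2 (-1.15) and Ifit2 (-1.29), and none of the 3 calls held in every alternative. The count was 0 without either Ly6C+ replicate or in a fit of the 2 groups alone, 1 without Ly6Cint replicate 1 and 10 without Ly6Cint replicate 2.

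Marrow Ly6C- monocytes did not show the blood pattern. Against marrow Ly6C+ monocytes 3 genes rose and 10 fell, where 11% of genes tested rose and 29.1% fell, and the median of -0.23 was close to the -0.28 over all genes. Both quantile scaling and edgeR, which brought the median of all genes to 0.02 and 0.00, gave 10 genes that rose and 6 that fell. Usp18 went from 47.9, 32.2 and 47.8 RPM to 17.4, 15, 21.7 and 6.67 RPM, a fall of 1.51 ± 0.39 (limma, adjusted p = 0.00228). Gbp3 fell by 1.79, Cmpk2 by 1.67, Ifi47 by 1.36, Mx1 by 1.25 and Sp100 by 0.88, and these calls, with that of Usp18, held in every alternative. Trim25 rose by 0.87, held likewise, and Ddx58 and Dtx3l rose by 0.81 and 0.84 but lost their calls in at least 1 alternative. Isg15 was at 32.8, 22.9, 38.1 and 37.8 RPM, all below the marrow Ly6C+ libraries, a fall of 0.63 ± 0.26 that barely passed (limma, adjusted p = 0.0491). Ifit3 was at 27.9, 16.3, 25.2 and 21.1 RPM against 17, 15.8 and 8.7 RPM in marrow Ly6C+ monocytes, with a ratio of 0.70 ± 0.33 (limma, adjusted p = 0.0911).

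The difference between the tissues was tested directly, as the Ly6C- against Ly6C+ ratio in marrow minus that in blood. It was above 0 for 17 genes and below 0 for 1, where 3.53% of genes tested passed above and 14.3% below, and the median was 0.82 against -0.28 over all genes. The fall from Ly6C+ to Ly6C- was smaller in marrow by 2.42 ± 0.36 for Isg15, 1.93 ± 0.51 for Oasl1 and 1.47 ± 0.30 for Ifi27l2a (limma, adjusted p = 2.12e-05, 0.00846 and 0.000759). For Ifit3 the difference was 2.95 ± 0.46, for Oas2 2.17 ± 0.48 and for Bst2 1.35 ± 0.33 (limma, adjusted p = 4.15e-05, 0.00204 and 0.00503). Irf7 differed by 1.38 ± 0.33 (limma, adjusted p = 0.00429). Gbp3 is the gene below 0, at -1.53, and it lost that call in most alternatives. Mx1 (0.28), Usp18 (0.54) and Sp100 (0.11) did not pass. Of the 18 calls 12 held in every alternative, and edgeR called 21 and quantile scaling 22, none below 0. With blood Ly6C+ replicates 1 and 2 alone 19 were above 0 and none below, and with 3 and 4 alone 16 were above and 4 below.

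**Figure D3:**
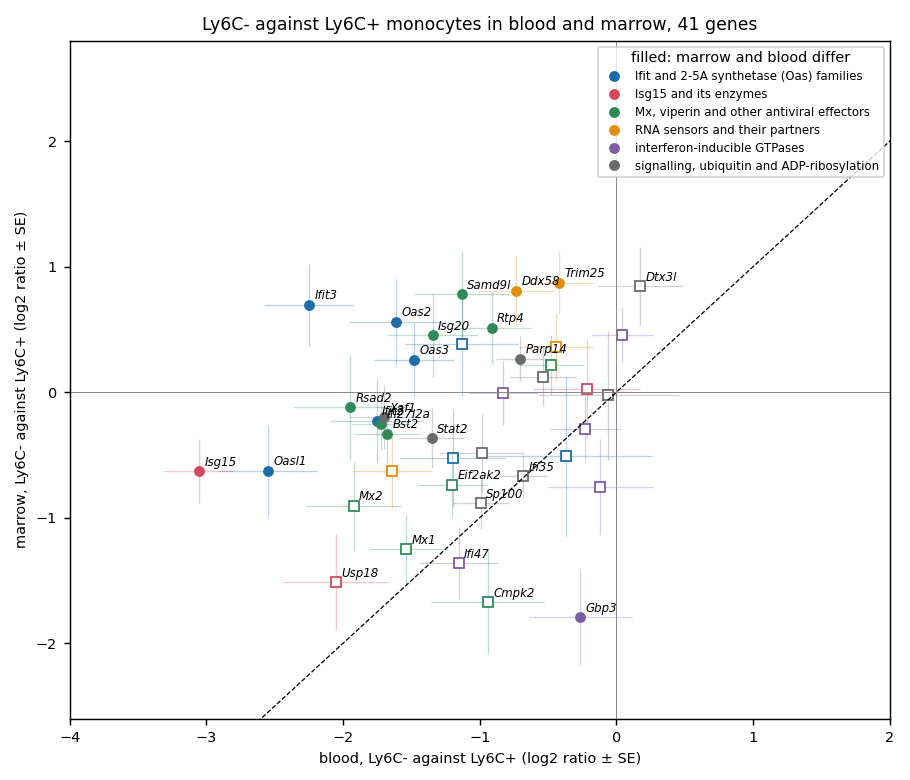
Log2 ratio of Ly6C- to Ly6C+ monocytes in blood (horizontal axis) and marrow (vertical axis), with standard errors, for the 41 genes coloured by role list. Filled circles passed the test of the difference between tissues, and the dashed line marks equal ratios; Isg15 lies at -3.05 in blood and -0.63 in marrow.

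Between the tissues, Ly6C- monocytes themselves gave 1 call. Gbp2 was at 18.4, 15, 15.8 and 24.5 RPM in marrow and 44.6, 33.4 and 42 RPM in blood, a rise of 1.09 ± 0.26 (limma, adjusted p = 0.0166), where 1.94% of genes tested rose and 0.598% fell. The median was -0.13 against 0.07 over all genes. Without marrow replicate 3 or blood replicate 3 no member passed, and without blood replicate 1 3 did. Ly6C+ monocytes of the 2 tissues thus differed at 24 genes and Ly6C- monocytes at 1, and the test of that contrast is the difference above. Marrow Ly6C- libraries carried summed tissue macrophage markers of 738 to 1039 RPM against 230 to 332 RPM in marrow Ly6C+ libraries, and erythroid markers of 717 to 1850 RPM against 3.86 to 180 RPM. Plasmacytoid dendritic cell markers were at 122 to 169 RPM against 54.1 to 67.2 RPM. Of 7 such markers tested 2 were higher and none lower (median 0.66). The part of these cells in the result was not tested.

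The knockout comparison is opened by the targeted gene. Cebpb was at 115 and 57.2 RPM in ko Ly6C+ and 186 and 67.1 RPM in ko Ly6Cint monocytes, against 804 and 693 RPM and 1734 and 1242 RPM in the wt groups, so each ko library was below each wt library. In Ly6Cint monocytes 7 of the 41 genes were higher in ko and none lower, where 3.63% of genes tested rose and 2.7% fell, and the median was 0.72 against 0.07 over all genes. Isg15 was at 69.4 and 54.5 RPM in wt and 235 and 262 RPM in ko, a rise of 2.00 ± 0.22 (limma, adjusted p = 9.11e-05), and this call held in every alternative. Oasl2 was at 23.9 and 45.4 RPM in wt and 133 and 122 RPM in ko and rose by 1.92 ± 0.42 (limma, adjusted p = 0.0115). Oas2 was at 98.3 and 77.9 RPM in wt and 192 and 267 RPM in ko and rose by 1.36 ± 0.28 (limma, adjusted p = 0.00793).

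The other calls were Usp18 (1.47), Ifit2 (1.22), Ifi27l2a (0.76) and Ifi35 (0.64), so the modifier Isg15 and its protease were both among the 7. All 7 except Isg15 lost their call in at least 1 alternative. The count was 1 without ko Ly6Cint replicate 2, 3 without ko Ly6Cint replicate 1, and 3 in a fit of these groups alone. Stat2 (0.54) and Mx1 (0.26) did not pass, nor did Irf7 (0.10). Of the other pathway lists, 1 receptor gene fell and nothing else passed. In the same ko libraries summed Ly6C- monocyte markers were at 1739 to 2097 RPM against 5930 to 6711 RPM in wt Ly6Cint. Dendritic cell markers were at 308 to 371 RPM against 75.8 to 89.6 RPM (2 of 5 tested higher). Tissue macrophage markers were at 560 to 898 RPM against 297 to 303 RPM (3 of 8 tested higher). Some markers of other lists passed as well. The part of these cells in the result was not tested.

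In Ly6C+ monocytes no member passed between ko and wt with limma, where 0.799% of genes tested rose and 0.465% fell; 9 had an unadjusted p under 0.05 and edgeR called 1, Xaf1, as lower in ko. The median was 0.33 against 0.02 over all genes. Isg15 was at 206 and 200 RPM in ko and 119 and 123 RPM in wt, a ratio of 0.74 ± 0.22 (limma, adjusted p = 0.16), and Oas2 had a ratio of 0.97 ± 0.28 (limma, adjusted p = 0.131). Both ko libraries were above both wt libraries for these genes without passing. A fit of these 4 libraries alone called 7 members higher and 1, Xaf1, lower. From Ly6C+ to Ly6Cint within ko, no member passed with limma or edgeR (4 unadjusted), where 0.79% of genes tested rose and 0.852% fell, and the median was -0.29 against -0.01; Isg15 had a ratio of 0.29 ± 0.22, against -0.96 in wt. A fit of the 2 ko groups alone called 6 members, all lower in Ly6Cint. The difference between these ratios was tested and no member passed with limma or edgeR (3 unadjusted); 0.00878% of genes tested passed above 0 and 0% below. That difference was 1.26 ± 0.31 for Isg15 (limma, adjusted p = 0.384). The comparisons with wt Ly6Cint share its 2 libraries. Without a ko Ly6C- library, whether the level falls further in ko was not analysed here.

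In the blood groups of the knockout table, taken as wt Ly6C+, wt Ly6Cint, wt Ly6C-, ko Ly6C+ and ko Ly6Cint, Ifit3 was at 56 ± 3.43, 27.8 ± 5.02, 18 ± 1.41, 66.4 ± 6.65 and 51.8 ± 2.18 RPM (SD, n = 2). Stat2 was at 162 ± 19.3, 125 ± 3.56, 78.7 ± 15.1, 207 ± 1.19 and 182 ± 14 RPM. For both genes ko Ly6Cint monocytes lay nearer wt Ly6C+ than wt Ly6Cint monocytes, although neither passed between genotypes. Bst2 was at 150 ± 11.2, 97.4 ± 34, 67.5 ± 0.281, 142 ± 2.78 and 193 ± 8.84 RPM, and Mx1 at 83.4 ± 5.11, 44 ± 18.6, 32.8 ± 8.02, 84 ± 9.47 and 50.7 ± 2.01 RPM. Bst2 and Mx1 were thus nearly level between the genotypes in Ly6C+ monocytes. Gbp2 was at 39.7 ± 7.52, 21.5 ± 9.24, 44 ± 20.5, 34.8 ± 1.27 and 30 ± 7.07 RPM and Irgm1 at 102 ± 11.6, 62.6 ± 41.5, 64.3 ± 25.9, 127 ± 14.2 and 107 ± 22.6 RPM, where most ranges of mean ± SD overlapped.

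**Figure D4:**
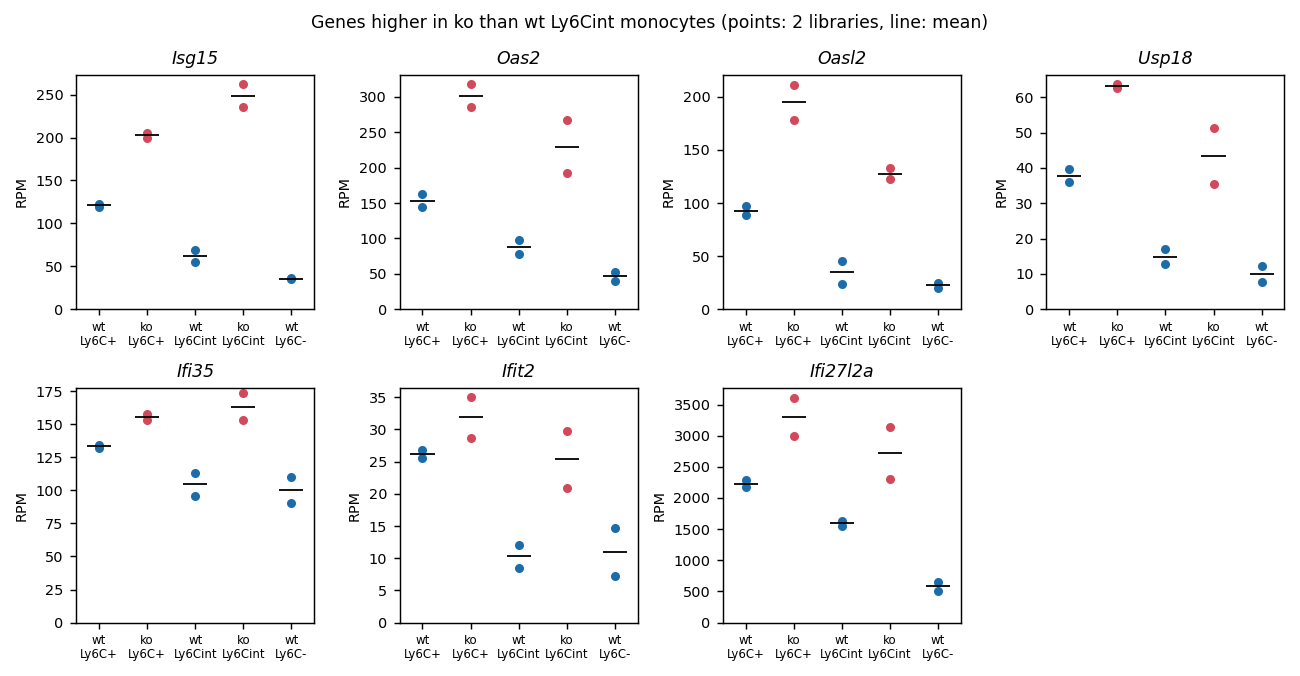
RPM of the 7 genes higher in ko than wt Ly6Cint monocytes in wt (blue) and ko (red) blood groups, 2 libraries per group with their mean as a line. In Ly6Cint monocytes both ko libraries lie above both wt libraries in each panel, for Isg15 at 235 and 262 RPM against 69.4 and 54.5 RPM.

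In the transfer experiment the marrow Ly6C+ monocytes were sampled before transfer and as grafts afterwards. At 24 h in blood 6 genes were lower than before transfer and none higher, where 2.98% of genes tested rose and 10.3% fell, and the median was -0.78 against -0.53 over all genes. Cmpk2 was at 106 and 73.6 RPM before and 14.9 RPM in both 24 h libraries, a fall of 2.49 ± 0.40 (limma, adjusted p = 0.000194). This gene also differed at least 4-fold between libraries within the 7-week blood Ly6C+ and the 8-week cMoP groups. Ifit2 was at 41.2 and 44.3 RPM before and at 0 and 1.31 RPM at 24 h and fell (limma, adjusted p = 0.00232). These 2 calls held in every alternative, and those of Ifit3, Stat2, Mx1 and Sp100 did not. The 24 h libraries had 8278 and 8109 genes above 0, against 11719 and 11574 before transfer. The part of missed genes in these falls was not tested. The 2 blood libraries at 24 h differed: Isg15 was at 149 RPM in AC and 694 RPM in B, and the summed level at 4964 and 8612 RPM. The count was 2 without AC and 13 without B, and 3 without either library from before transfer. Of 10 Ly6C- monocyte markers 10 rose (median 4.37) from before transfer to 24 h in blood, and of 10 Ly6C+ monocyte markers 9 fell (median -2.55). The comparison thus spans a change of subset markers. Erythroid markers, at 13.6 to 25 RPM before transfer, summed to 2003 to 4384 RPM in the 24 h blood libraries. The part of these marker changes in the result was not tested. In spleen at 24 h no member passed (1 unadjusted), where 2.89% of genes tested rose and 2.91% fell. Without spleen 24 h library B 1 member passed. edgeR was not run on this table.

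From 24 to 48 h in blood 7 genes fell and 1 rose, where 3.67% of genes tested fell and 4.42% rose, and the median was -0.79 against 0.00. Bst2 was at 429 and 466 RPM at 24 h, 244 and 282 RPM at 36 h and 197 and 127 RPM at 48 h, a fall of 1.50 ± 0.26 from 24 to 48 h (limma, adjusted p = 0.00101). Isg15 was at 178 and 205 RPM at 36 h and 85.9 and 7.01 RPM at 48 h and fell by 3.62 ± 0.79 (limma, adjusted p = 0.00638). Ifi27l2a went from 2274 and 3549 RPM to 1217 and 1158 RPM, a fall of 1.26 ± 0.31 (limma, adjusted p = 0.0151). Usp18, Ifi47 and Oas2 also fell, and Oasl1, at 14.9 and 41.6 RPM at 24 h, was listed at 0 in both 48 h libraries. Genes above 0 numbered 10227 and 9785 at 36 h and 8761 and 7734 at 48 h, so Oasl1 may have been missed. Cmpk2 rose by 2.50 ± 0.40, to 100 and 78.4 RPM (limma, adjusted p = 0.000592). It varied widely within 1 group elsewhere, at 66.8, 78.4, 22 and 8.59 RPM in 7-week blood Ly6C+ monocytes. Whether its course in the grafts exceeds a spread of that kind was not tested. A fit of the 24 h and 48 h blood grafts alone called none. Without 24 h library AC 15 fell and 1 rose, and without 48 h library AC 13 fell and 2 rose. Over the same time summed Ly6C- monocyte markers were at 4013 to 4864 RPM at 24 h and 6225 to 7360 RPM at 48 h. Of 10 Ly6C+ monocyte markers 7 fell (median -2.57), and 2 of 8 neutrophil markers fell. The part of these marker changes in the result was not tested.

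In spleen from 24 to 48 h 5 genes fell and none rose, where 0.314% of genes tested rose and 2.1% fell, and the median was -0.76 against -0.16. Bst2 went from 463 and 504 RPM to 89 and 178 RPM, a fall of 1.93 ± 0.26 (limma, adjusted p = 0.000276). Rtp4 fell by 2.62, Mx1 by 2.47 and Ifi47 by 2.16. Oasl1 went from 49.1 and 48.2 RPM over 11 and 8.33 RPM at 36 h to a listed 0 in both 48 h libraries. Those 48 h libraries had 8396 and 8614 genes above 0, against 10034 and 10864 at 36 h. Bst2, Ifi47 and Oasl1 were thus called lower in both tissues. Blood grafts carry the labels AC and B and spleen grafts B and C, so libraries of both tissues may come from the same recipients. The calls in the 2 tissues are therefore not shown to be independent. Zbp1 did not follow, at 405 and 221 RPM in blood and 395 and 403 RPM in spleen at 48 h against 260 and 235 RPM before transfer. A fit of the 2 groups alone called none, and the count was 3 without 24 h library C and 9 without 48 h library C. Markers of other cells moved over the same time. Of 11 tissue macrophage markers tested 3 fell (median -3.39), and their sum was 598 to 1404 RPM at 24 h, 1802 to 5134 RPM at 36 h and 484 to 659.9 RPM at 48 h, when Mertk, Timd4, Cd5l and Slc40a1 were listed at 0. B cell markers (2 of 5 tested fell) summed to 118 to 368 RPM at 24 h and 72.7 to 82.4 RPM at 48 h, and T and NK cell markers (1 of 7 fell) to 64 to 99.5 RPM and 12.3 to 29.8 RPM. Summed Ly6C- monocyte markers went from between 4167 and 4204 RPM to between 6553 and 6605 RPM, and 7 of 10 Ly6C+ monocyte markers fell (median -3.78). The part of these cells in the result was not tested.

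Other members kept to a looser course, given here before transfer, then in blood at 24, 36 and 48 h, then in spleen at those times (mean ± SD, n = 2). Mx1 was at 155 ± 16.7, 39.9 ± 19.8, 79.5 ± 15.8, 24.8 ± 2.17, 73.8 ± 23.2, 53.7 ± 24.5 and 14.7 ± 12.1 RPM. Stat2 was at 258 ± 49.3, 65.3 ± 53.9, 172 ± 28.8, 63.3 ± 23.9, 145 ± 76.2, 152 ± 17.1 and 102 ± 20.8 RPM. In blood both were lower at 24 h than at 36 h and lowest at 48 h, and the libraries of a time differed widely. Oasl2 was at 163 ± 7.44, 102 ± 90.8, 91.8 ± 8.96, 47.5 ± 18.3, 150 ± 75.9, 106 ± 15.5 and 47.5 ± 43.1 RPM. Irgm1 was at 135 ± 9.61, 62.2 ± 4.34, 170 ± 36, 117 ± 74.1, 177 ± 34.1, 159 ± 18 and 115 ± 28.8 RPM, and Gbp2 at 80.2 ± 11.8, 39.4 ± 34.7, 91.4 ± 69.7, 20.4 ± 18.9, 47.1 ± 12.1, 96 ± 68.8 and 70.3 ± 26.3 RPM. The GTPases Irgm1 and Gbp2 showed no shared fall to 48 h in spleen.

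**Figure D5:**
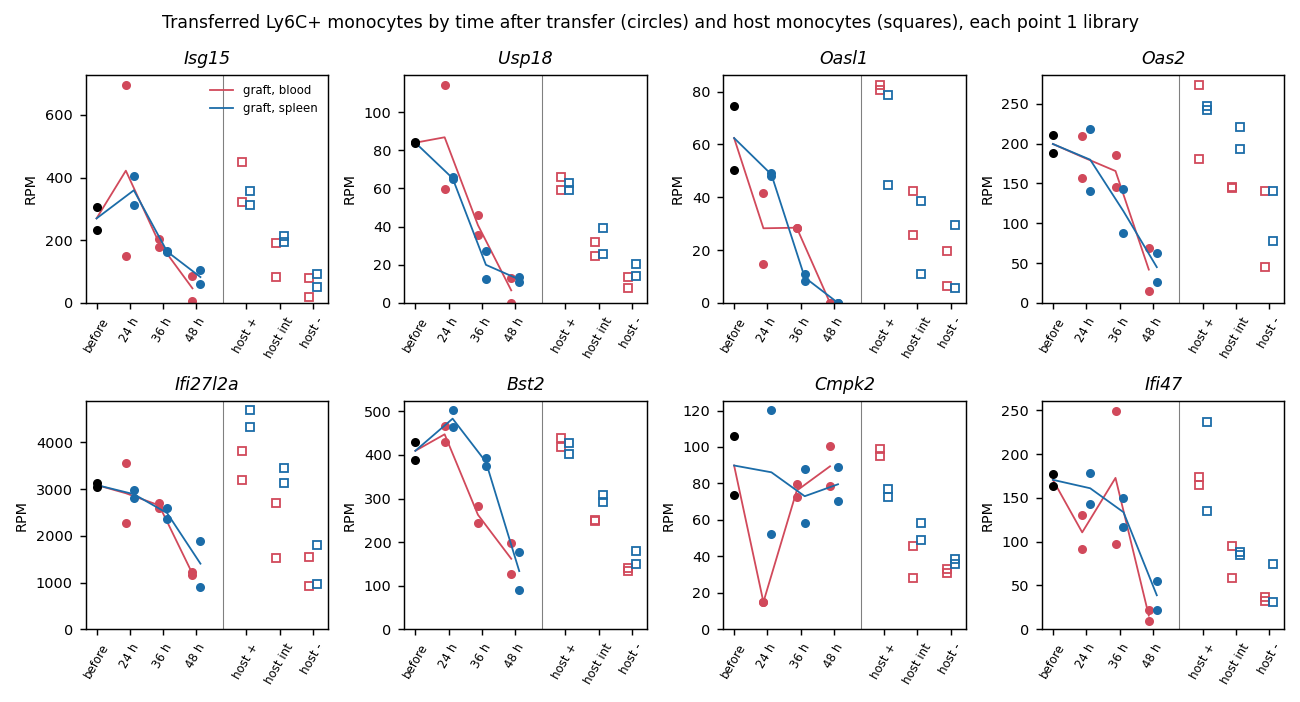
RPM of 8 genes in transferred monocytes before transfer and at 24, 36 and 48 h in blood (red) and spleen (blue), lines joining means of 2 libraries, with host Ly6C+, Ly6Cint and Ly6C- monocytes as squares. Bst2 and Ifi27l2a end at 48 h near host Ly6C- monocytes. Cmpk2 in blood is at 14.9 RPM in both 24 h libraries and at 100 and 78.4 RPM at 48 h. This gene also varied widely within single groups of the other tables.

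At 24 h spleen grafts were higher than blood grafts for 3 genes and lower for none, where 4.01% of genes tested were higher and 0.579% lower, and the median was 0.56 against 0.27. Among them were Cmpk2 and Irgm1, which also differed widely between the 7-week blood Ly6C+ libraries. The 3 genes were Ifit2, Cmpk2 (by 2.33 ± 0.40) and Irgm1 (by 1.48 ± 0.38) (limma, adjusted p = 0.0252, 0.00228 and 0.0273). None passed in a fit of these groups alone, 9 did without blood library B and 1 without spleen library B. In the same comparison 4 of 11 tissue macrophage markers tested were higher in spleen grafts (median 3.32), with sums of 598 to 1404 RPM against 428 to 566 RPM in blood grafts, where Vcam1, Mertk, Timd4, Cd5l and Slc40a1 were listed at 0. Of 7 T and NK cell markers 2 were higher, with sums of 64 to 99.5 RPM against 0 to 76.7 RPM, and 1 of 4 erythroid markers was lower (median -4.11), with sums of 71.9 to 331 RPM against 2003 to 4384 RPM. Their part in the result was not tested. Set beside host blood Ly6C- monocytes, 48 h blood grafts were higher for Cmpk2 (by 1.44, limma, adjusted p = 0.0471) and lower for Oasl1 (adjusted p = 0.016), where 0.728% of genes tested were higher and 2.99% lower. The median was -0.45 against -0.31 over all genes. Neither call held in every alternative: none passed without either host Ly6C- replicate and 8 did without 48 h library AC. Isg15 was at 78 and 17.5 RPM in host blood Ly6C- cells, overlapping the grafts' 85.9 and 7.01 RPM.

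Host monocytes of spleen ranked as those of blood. The summed level was 10235, 7439 and 4196 RPM on average in host spleen Ly6C+, Ly6Cint and Ly6C- monocytes and 9482, 5413 and 3780 RPM in host blood. From spleen Ly6C+ to Ly6C- 3 genes fell and none rose, where 1.59% of genes tested rose and 1.18% fell, and the median was -0.99 against 0.05. They were Ifi27l2a (-1.77), Bst2 (-1.33) and Ifi47 (-1.87), all of them also lower in host blood, and none was called without Ly6C- replicate A. A fit of these 2 groups alone called 26, and the share of all genes called in that fit is not given here. No member passed from Ly6C+ to Ly6Cint in blood (14 unadjusted; 0.744% of genes tested rose and 0.413% fell, median -0.86) or in spleen (2 unadjusted; 0.446% rose and 0.116% fell, median -0.46). Between spleen and blood no member passed, nor had an unadjusted p under 0.05, in Ly6C+ hosts (0% of genes tested rose and 0.0909% fell) or Ly6C- hosts (0.149% rose and 0.0413% fell).

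Host levels are given as blood Ly6C+, Ly6Cint and Ly6C-, then spleen in the same order. Ifit3 was at 119 ± 46.8, 45.8 ± 8.36, 27 ± 19.5, 117 ± 27.9, 74.7 ± 35 and 28.7 ± 15.8 RPM (SD, n = 2), and Stat2 at 348 ± 86.1, 143 ± 47.4, 153 ± 45.8, 493 ± 47.3, 291 ± 44.9 and 222 ± 37.8 RPM. Mx1 was at 164 ± 61, 61.3 ± 31.6, 57.2 ± 24.5, 180 ± 43.1, 101 ± 19.2 and 59.8 ± 5.9 RPM, and Oasl2 at 203 ± 36.3, 81.9 ± 50.2, 44.3 ± 34.1, 130 ± 3.77, 117 ± 26.3 and 38.3 ± 21.4 RPM. Ly6C+ monocytes had the highest mean of these 4 genes in both tissues, with no member called in the Ly6Cint step. Gbp2 was at 49.7 ± 14.6, 13.1 ± 1.86, 23.9 ± 2.17, 44.9 ± 2.15, 23.9 ± 6.51 and 39.9 ± 7.43 RPM, so its lowest mean was in Ly6Cint cells of both tissues, as it was among the blood groups of the other 2 tables that had all 3 subsets. Irgm1 was at 167 ± 55.4, 115 ± 40.3, 71 ± 7.44, 151 ± 8.73, 149 ± 31.6 and 93.3 ± 13.7 RPM.

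Members of the Ifit, Oas, Mx, Gbp and Irgm families resemble each other in sequence. How reads that match several copies were assigned is not given in the sources used here, so values of single family members are uncertain to that degree.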

How the data were processed

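RNA captured on oligo-dT beads was sequenced from 67 libraries, and the authors deposited 3 tables of values per gene. HISAT 0.1.5, HOMER, SAMtools and bcl2fastq and the build mm9 are listed in the submitters' processing notes. The deposited values of the 7-week and knockout tables are a signal scaled to a common total, taken here as 10000000, and were divided to reads per 1000000 (RPM). The deposited transfer values are rounded and were treated as a score, scaled to 1000000 over listed genes. Whole reads, within 0.1 read, were recovered for the first 2 tables. No column was left unused (0).

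Genes with 2 RPM or more in at least 3 libraries (7-week) or 2 libraries (other tables) were tested with limma 3.58.1 in R 4.3.3 (trend, 1 mean per group, all libraries of a table sharing the spread) on log2(RPM + 1), with Benjamini-Hochberg adjustment. The design had allowed for edgeR as the main test had the tables held counts; edgeR 4.0.16 with TMM was an alternative on the recovered reads. The other alternatives were a pseudocount of 4, no filter, quantile scaling, a fit of the compared groups alone, a replicate block, leaving out each library, and, chosen after seeing the data, blood Ly6C+ replicates 1 and 2, or 3 and 4, alone. On simulated data for cMoP against MDP (11373 genes), 67% of genes changed by 1 log2 unit and 100% of those changed by 2 were recovered. For the 8-week cMoP against MDP (11388 genes) these shares were 27% and 100%, and for 24 h blood grafts against before transfer (12096 genes) 24% and 99%. These shares hold for the simulated data only, which did not have the uneven spread of the real libraries, since 1 setting of spread served all genes. For the transfer table the simulated depth was also set above the recovered depths of 502760 to 1184909 reads. In the real 24 h blood grafts 12.3% of the 5787 genes checked differed at least 4-fold between the 2 libraries. Recovery there may be lower than the simulated shares, and it was not measured.

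The members and lists were chosen with earlier results of these data known. Members named are, per comparison and role list, up to 4 called genes with the largest ratios and a mean of at least 20 RPM, those called against the majority, and up to 3 with the smallest ratios. Isg15, Ifit3, Mx1, Stat2, Oasl2, Ifi27l2a, Bst2, Gbp2 and Irgm1 are given in any case. Genes whose values are discussed beyond this were chosen after their values were seen. Replicate labels showed no pairing of libraries over all groups together, and pairing between particular groups was not tested. Values of 1 gene on the pathway lists are not reported here.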

Additional observations from a re-analysis of the deposited data

Results flagged for a closer look

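The Ly6C- against Ly6C+ difference was not the same in marrow and blood for 18 of the 41 genes, by the test of the difference itself (limma, adjusted p under 0.05). For Isg15 the marrow ratio exceeded the blood ratio by 2.42, for Ifit3 by 2.95, for Stat2 by 0.99, for Ifi27l2a by 1.47 and for Bst2 by 1.35, all on the log2 scale.

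A library lay far from the rest of its group of 4 in 4 of 40 checks made on the 7-week table (Dixon's criterion), where chance gives about 1 in 20. Ifit3 was at 0.275 RPM, a single read, in cMoP replicate 4 and at 0 in the other cMoP libraries. With those tied at 0, any single read gives the largest possible ratio, so this check does not count as an excess over chance. Mx1 was at 5.80 RPM in cMoP replicate 2 and between 9.46 and 10 RPM in the others. Bst2 was at 258 RPM in MDP replicate 1 and between 140 and 147 RPM in the others. The summed level of the 41 genes was 2501 RPM in marrow Ly6C- replicate 2 and between 2976 and 3002 RPM in the others.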

How the results depend on the processing

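Across the alternatives, 5067 values of single named genes, called or not, stayed on their side of the threshold, 508 called ones lost the call, 57 others gained one and 1 called value changed sign: Cmpk2 in blood against marrow Ly6C+ monocytes was 0.019 with blood replicates 1 and 2 alone. A fit of the compared groups alone called 17 members for cMoP against MDP, 0 for wt Ly6Cint against Ly6C+, 6 for ko Ly6Cint against Ly6C+, 8 for ko against wt Ly6C+, 3 for ko against wt Ly6Cint, 3 for 24 h blood grafts against before transfer, and 0 for 48 h against 24 h grafts in blood, for the same in spleen, for 24 h spleen against blood grafts and for 48 h grafts against host Ly6C- cells. It called 15 and 26 for host Ly6C- against Ly6C+ in blood and spleen and 1 for host spleen Ly6Cint against Ly6C+, which no filter on low values also gave as 1. A pseudocount of 4 gave 3 for cMoP against MDP, 7 for blood Ly6C- against Ly6Cint, 8 for wt Ly6Cint against Ly6C+, 1 for ko against wt Ly6C+ and 1 for 48 h grafts against host cells. Quantile scaling gave 1 for wt Ly6Cint against Ly6C+ and 0 for 48 h grafts against host cells, and edgeR gave 6 for the first and 1 for ko against wt Ly6C+. The cause of these moves was not tested. With the replicate block, 8 members were called for cMoP against MDP and 8 for 48 h against 24 h spleen grafts. The other counts it could give stayed within 1.5 times. Libraries with the same label deviated from their group means with a median correlation of -0.0036, 0.0041 and 0.0072 in the 3 tables. Single pairs ran from -0.299 to 0.385, from -0.322 to 0.411 and from -0.0347 to 0.0773. The medians pool all pairs of groups, so they cannot exclude that labels pair libraries of particular groups.

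Leaving out each library in turn gave 4 to 8 members for cMoP against MDP, 2 to 9 for blood Ly6C- against Ly6Cint, 0 to 3 for Ly6C- blood against marrow, 0 to 2 for the 8-week cMoP against MDP, 0 to 10 for wt Ly6Cint against Ly6C+, 10 to 16 for wt Ly6C- against Ly6C+ and 1 to 7 for ko against wt Ly6Cint. For grafts it gave 2 to 13 in blood and 0 to 1 in spleen for 24 h against before transfer, 8 to 16 in blood and 3 to 9 in spleen for 48 h against 24 h, and 1 to 9 for 24 h spleen against blood. It gave 1 to 4 and 0 to 4 for host Ly6C- against Ly6C+ in blood and spleen, and 0 to 8 for 48 h grafts against host cells. A group left with 1 library was assumed to vary like the others. With 2 libraries in a group, changes of 1 log2 unit were mostly missed in simulation.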

Other observations

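The spread between libraries of a group was uneven over the members. In 7-week blood Ly6C+ monocytes, replicates 1 to 4 in that order, Rsad2 was at 183, 144, 62.5 and 36.1 RPM, Irgm1 at 137, 153, 26.4 and 58.4 RPM and Herc6 at 28.3, 23.8, 6.16 and 8.59 RPM, whereas Isg15 stayed between 168 and 196 RPM. Genes of this kind were also apart in 2 groups of the knockout table. Trim30a was at 7.44 and 38.1 RPM in the 8-week cMoP libraries and 8.34 and 41.6 RPM in wt Ly6Cint libraries, and Cmpk2 at 7.88 and 38.1 RPM and 7.76 and 31.4 RPM. Of members with a mean of at least 20 RPM, 3 of 16 in 8-week cMoP (Cmpk2, Ifi47 and Trim30a) differed at least 4-fold between libraries, against 1.23% of all such genes. In wt Ly6Cint monocytes 1 of 34 members (Trim30a) did, 2.94% against 1.53% of all such genes; Cmpk2 had a mean below that level there. These genes were singled out after their values were seen, and the cause was not tested.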
